A study of Mus musculus with 12 samples.

Results

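The inhibitors of cyclin-dependent kinases (CDKs) and the retinoblastoma family of pocket proteins were examined in hematopoietic stem cells of mice that lack Osmr, the oncostatin M receptor gene. The family was taken by gene symbol as 10 of the 43279 genes in the deposited table of normalised read counts: 3 CIP/KIP inhibitors (Cdkn1a, Cdkn1b and Cdkn1c), 4 INK4 inhibitors (Cdkn2a, Cdkn2b, Cdkn2c and Cdkn2d) and 3 pocket proteins (Rb1, Rbl1 and Rbl2). The compared libraries came from 5 adult naive Osmr-/- mice and 6 adult wild-type (WT) C57BL/6 mice, 1 library per mouse. The study asked how loss of this receptor in the stem cell niche bears on stem cell function. From each mouse, 1000 marrow cells were sorted on KIT and SCA1 after exclusion of cells with lineage markers, FLT3 or CD48, and polyadenylated RNA was amplified with a SMART-Seq v4 kit. The labels call the mutant an Osmr gene knock-out and give neither the allele nor its breeding history. A sample labelled Osmr-/- number 4 was not analysed here.

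Entry into the cell cycle is set by a short chain of proteins. INK4 proteins bind the kinases CDK4 and CDK6, CIP/KIP proteins bind complexes of cyclins with CDKs and above all block CDK2, and the kinases in turn phosphorylate the pocket proteins and so free the E2F transcription factors that they hold in check. Most hematopoietic stem cells in adult marrow rest outside the cycle, and in mice Cdkn1c and Cdkn1b are known for keeping them there, while loss of Cdkn2c is known to raise their self-renewal.

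The 5 CDK inhibitor genes with enough reads for the test were lower in Osmr-/- cells and the 3 pocket protein genes were higher, with median log2 differences of -1.31 and 0.70, beside a median of -0.05 over all 13358 genes tested. None of the 8 genes passed the threshold of an adjusted p under 0.05 in limma, where 0.0225% of all genes tested did. Before adjustment, 4 inhibitors lay under p 0.05 on the lower side, as 10.5% of all genes did, and 1 pocket protein did on the higher side, as 7.5% of all genes did. For 2 of the 8 genes the groups did not overlap: every Osmr-/- library lay below every WT library for Cdkn2c, as in 1.42% of all genes, and above every WT library for Rbl1, as in 1.09% of all genes. The authors' deposited table, a DESeq2 comparison, called the same 2 genes at an adjusted p under 0.05, where it called 4.46% of its genes. DESeq2 run anew on the recovered reads called 3 members, Cdkn2c, Cdkn2d and Rbl1, and 4.54% of the genes to which it gave an adjusted p. Limma with the set of library numbers described further on as a covariate called 0 members and 2.52% of all genes.

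The promoters of the 3 genes just named are shown because they carry the clearest differences. Of the 10 genes, 8 had 1 or more RefSeq windows on GRCm38.p6, each running from 250 bases before to 50 bases after an annotated start, and there were 11 windows in all. Each was searched on both strands for an E2F motif (TTTCCCGC, TTTGGCGC, TTTCGCGC or TTTGCCGC) and for a GC box (GGGCGG), motifs chosen after the sequences were seen, as was the STAT motif named further on. Capitals mark the matches, and no match of 1 motif overlapped a match of another.
Rbl1, chr2:157204485-157204784, minus strand: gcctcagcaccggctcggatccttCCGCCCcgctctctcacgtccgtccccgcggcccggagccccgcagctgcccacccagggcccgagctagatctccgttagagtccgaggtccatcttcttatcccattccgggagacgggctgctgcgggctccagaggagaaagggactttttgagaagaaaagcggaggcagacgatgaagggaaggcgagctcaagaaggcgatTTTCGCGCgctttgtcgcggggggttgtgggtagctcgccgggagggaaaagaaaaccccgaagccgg
Cdkn2c, upstream start, chr4:109666707-109667006, minus strand: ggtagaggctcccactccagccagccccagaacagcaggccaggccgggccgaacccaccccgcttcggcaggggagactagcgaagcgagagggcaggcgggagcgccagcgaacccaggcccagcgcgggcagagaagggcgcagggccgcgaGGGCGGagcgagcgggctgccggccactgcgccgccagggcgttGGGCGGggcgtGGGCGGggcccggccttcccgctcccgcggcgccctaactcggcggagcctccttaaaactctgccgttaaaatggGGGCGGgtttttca
Cdkn2c, downstream start, chr4:109665323-109665622, minus strand: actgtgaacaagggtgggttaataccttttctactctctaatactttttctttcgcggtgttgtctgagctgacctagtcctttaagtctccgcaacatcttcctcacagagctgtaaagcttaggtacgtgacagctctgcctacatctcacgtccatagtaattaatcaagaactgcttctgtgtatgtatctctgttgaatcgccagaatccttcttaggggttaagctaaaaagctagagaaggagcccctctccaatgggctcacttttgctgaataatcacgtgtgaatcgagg
Cdkn2d, chr9:21291160-21291459, minus strand: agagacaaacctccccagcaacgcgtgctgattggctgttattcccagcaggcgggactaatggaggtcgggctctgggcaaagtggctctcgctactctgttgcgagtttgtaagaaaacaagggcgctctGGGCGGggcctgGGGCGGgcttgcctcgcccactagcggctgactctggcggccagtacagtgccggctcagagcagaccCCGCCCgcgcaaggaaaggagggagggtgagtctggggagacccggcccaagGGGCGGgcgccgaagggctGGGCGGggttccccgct
The Rbl1 window held 1 E2F match, at bases -18 to -11 from the start, and 1 GC box. An E2F match was present in 2 of the 11 member windows, that of Rbl1 and 1 of those of Cdkn2a, and in 2.26% of the 32851 RefSeq windows of all genes. The upstream Cdkn2c window held 4 GC boxes and the Cdkn2d window 5, while the downstream Cdkn2c window held neither motif. GC boxes were common, in 9 of the 11 member windows and in 35.7% of all windows. The STAT motif TTCNNNGAA, the kind of site used downstream of oncostatin M receptors, was in none of the 11 member windows and in 8.3% of all windows.

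Osmr-/- libraries held 9.50 to 11.2 M (mega) reads and WT libraries 9.89 to 22.1 M, where number 1 was the deepest. Libraries numbered 1 to 3 stood apart from those numbered 4 to 6 in both genotypes: on the second principal component, which held 16.5% of the variance, they lay at 16.0 to 84.0 and at -62.6 to -39.5. The labels name no batch, so each member's difference within each set of numbers is given beside its main value. Osmr itself had 4 reads over the Osmr-/- libraries and 13 over the WT libraries, so its counts do not check the genotype (exact two-sided permutation p 0.805). Stem cell genes were present. Ly6a, which encodes SCA1, averaged 6893 ± 1837 normalised counts in Osmr-/- (SD, n = 5) and 5376 ± 1470 in WT (SD, n = 6). Kit averaged 4455 and 3740.3. Both were among the 7 of 12 listed stem cell genes that were higher in Osmr-/-. Of the 5 lower ones, Procr averaged 323 in Osmr-/- and 543 in WT, and Slamf1 139 and 297. Of genes that the gate excluded, Cd3e and Ly6g had 0 reads in Osmr-/- and 4 and 1 reads in WT, while transcripts of Flt3 averaged 389 in Osmr-/- and 504 in WT.

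**Figure D1:**
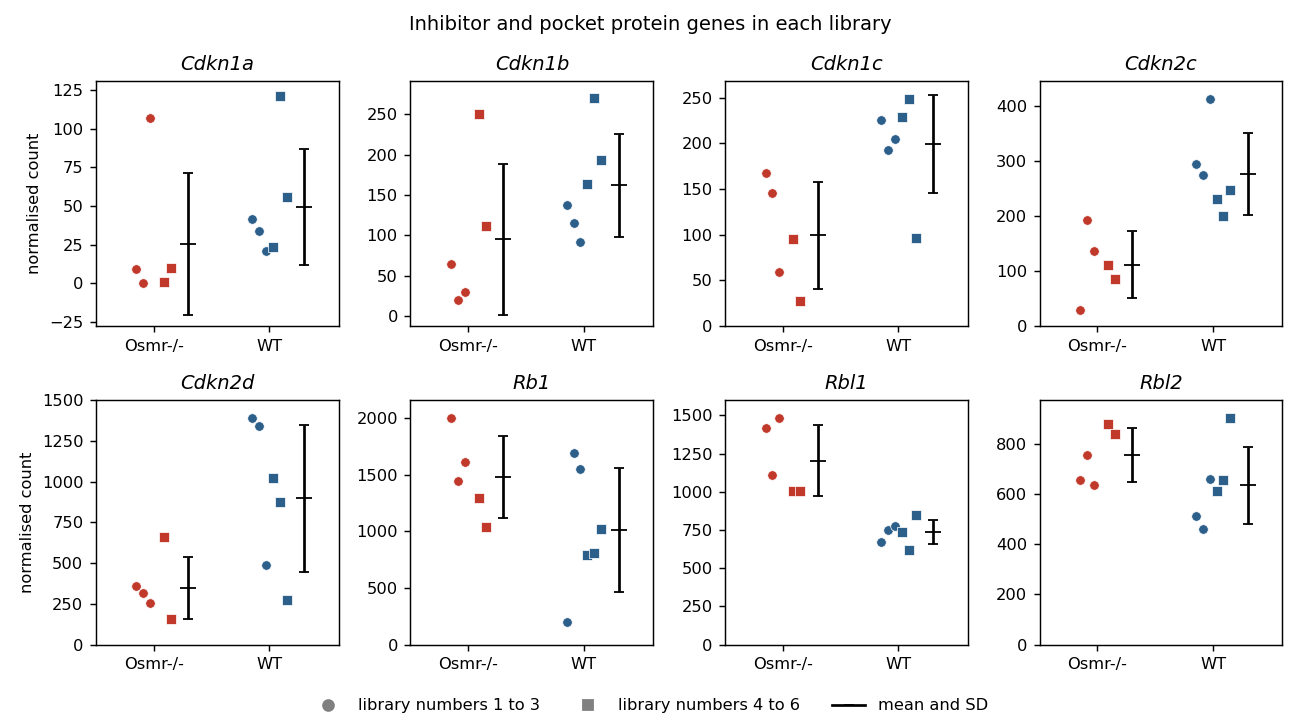
Normalised count (vertical axis, linear) of each of the 8 tested genes in every library, Osmr-/- left and WT right, circles for numbers 1 to 3 and squares for numbers 4 to 6, with the mean and SD as a black bar. All 5 Osmr-/- points lie below the 6 WT points for Cdkn2c and above them for Rbl1, and the groups overlap in the other 6 panels.

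Of the CIP/KIP inhibitors, Cdkn1c, which encodes p57 and is imprinted in the mouse, had the highest level per exon length. It lies on chromosome 7 from 143458339 to 143461050 (GRCm38). Its exons share 625 bases, 30.7% of their length, with Gm44732 on the opposite strand, a gene without counts here. The strand setting of the counting is not given, so a part of its reads is uncertain. Its normalised counts were 168, 145, 59.3, 95.7 and 27.3 in Osmr-/- numbers 1, 2, 3, 5 and 6, against a range of 96.2 to 248 with a median of 215 in WT. Of the 5 Osmr-/- libraries 3 lay below the lowest WT library, number 6, and 5 WT libraries lay above every Osmr-/- library. The means were 99.1 ± 58.3 in Osmr-/- (SD, n = 5) and 199 ± 54.1 in WT (SD, n = 6), a log2 difference of -1.20 (standard error 0.48, adjusted p 0.221 in limma). Libraries numbered 1 to 3 gave -0.87 and those numbered 4 to 6 gave -1.76.

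Cdkn1b, which encodes p27, a brake on CDK2 that is controlled largely through protein breakdown, is on chromosome 6 from 134920401 to 134925513. It had 64.6, 20.1, 29.6, 250.2 and 111 normalised counts in Osmr-/- numbers 1, 2, 3, 5 and 6, against 91.7 to 269 with a median of 151 in WT. The low values among the Osmr-/- libraries were those of numbers 1 to 3, and number 5 lay near the top of the WT range. Over all libraries the log2 difference was -1.23 (standard error 0.59, adjusted p 0.287). Libraries numbered 1 to 3 gave -1.72 and those numbered 4 to 6 gave -0.29. The difference between the number sets did not pass over all genes (interaction adjusted p 0.608).

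Cdkn1a, which encodes p21 and is switched on by p53, had few reads in most Osmr-/- libraries. It lies on chromosome 17 from 29090976 to 29100727, and its exons share 273 bases with AC167363.2 on the opposite strand. Its normalised counts were 9.06, 0, 107, 1.03 and 9.76 in Osmr-/- numbers 1, 2, 3, 5 and 6, against 21.2 to 121 with a median of 37.6 in WT. A count of 0 allows 3 reads, or 3.55 normalised counts in Osmr-/- number 2. So 4 Osmr-/- libraries lay below every WT library and number 3 lay above 5 of the 6. Cdkn1a had a log2 difference of -2.49 (standard error 1.04, adjusted p 0.239), which was -1.26 with a pseudocount of 10 and -0.96 in DESeq2. Libraries numbered 4 to 6 gave -3.56, with means of 5.39 in Osmr-/- and 66.7 in WT. Libraries numbered 1 to 3 gave -1.64 although the mean was higher, at 38.7 in Osmr-/- and 32.1 in WT, number 3 holding 107 of these counts. Osmr-/- number 3 also had the highest summed granulocyte and monocyte markers, 33198 normalised counts against 10890.2 to 12071 in the other Osmr-/- libraries, and the part of those cells in its Cdkn1a value was not tested.

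Together the CIP/KIP genes summed to 76.6 ± 25.4 normalised counts per kilobase of exon in Osmr-/- (SD, n = 5) and 147 ± 37.9 in WT (SD, n = 6). Cdkn1c made up 60.1% ± 26.8 of that sum in Osmr-/- and 66.4% ± 13.0 in WT, Cdkn1b 28.8% (range 5.83% to 60.2%) and 24.4% ± 8.71, and Cdkn1a 11.1% ± 19.6 and 9.12% ± 5.05. The make-up of the sum varied more between Osmr-/- libraries than between WT libraries, a description without a test. In Osmr-/- it rested on 102 reads of Cdkn1a, 454 of Cdkn1b and 438 of Cdkn1c. In WT these were 345, 1159 and 1499. The part of low read numbers in the wider shares was not tested. Within Osmr-/- the share of Cdkn1c ran from 33.0% to 94.2%, against 44.8% to 79.4% in WT.

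**Figure D2:**
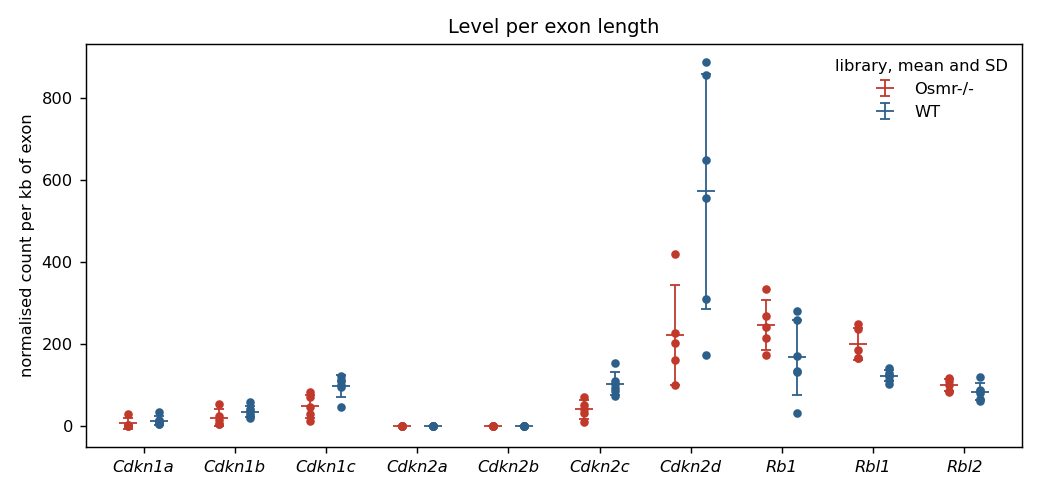
Normalised count per kilobase of annotated exon (vertical axis, linear) for all 10 genes, with 1 point per library and the mean and SD of each genotype, Osmr-/- left of WT. Rb1 has the highest mean in Osmr-/-, at 246 ± 60.2, Cdkn2d has the highest in WT, at 571 ± 287, and Cdkn2a and Cdkn2b lie at the baseline.

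In the INK4 family the transcripts came almost wholly from Cdkn2d and Cdkn2c. Cdkn2c, which encodes p18, is on chromosome 4 from 109660876 to 109667189. It had 29.5, 194, 137, 111 and 84.9 normalised counts in Osmr-/- numbers 1, 2, 3, 5 and 6, against 199.8 to 413 with a median of 261 in WT. The highest Osmr-/- library and the lowest WT library were thus close together, and Osmr-/- number 1 stood lowest. The means were 111 ± 61.0 in Osmr-/- (SD, n = 5) and 277 ± 74.5 in WT (SD, n = 6), with a log2 difference of -1.50 (standard error 0.44, adjusted p 0.129). By p it ranked 391 of the 13358 genes tested. In the authors' deposited table its log2 fold change, with the sign turned to Osmr-/- over WT, was -1.11 at an adjusted p of 0.0353.

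Cdkn2d, which encodes p19INK4D, lies on chromosome 9 from 21288410 to 21291407 and had the highest level per exon length of any inhibitor. It had 358, 319, 253, 661 and 157 normalised counts in Osmr-/- numbers 1, 2, 3, 5 and 6, against 274 to 1394 with a median of 948 in WT. WT numbers 3 and 6, at 487 and 274, lay among the Osmr-/- libraries, and the other 4 WT libraries lay above them all. The means were 349.6 ± 190.0 in Osmr-/- (SD, n = 5) and 899 ± 452 in WT (SD, n = 6). Cdkn2d had a log2 difference of -1.31 (standard error 0.44, adjusted p 0.156). The adjusted p was 0.0539 in the authors' deposited table and 0.0370 in DESeq2 on the recovered reads.

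Both genes were lower within each set of library numbers. For Cdkn2c the log2 difference was -1.79 among libraries 1 to 3 and -1.20 among libraries 4 to 6. For Cdkn2d these values were -1.66 and -0.95. Per exon length, Cdkn2d averaged 222 ± 121 in Osmr-/- and 571 ± 287 in WT, and Cdkn2c 41.4 ± 22.7 and 103 ± 27.7. Cdkn2d therefore made up 82.4% ± 10.0 of the INK4 sum in Osmr-/- and 81.1% ± 11.7 in WT.

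Cdkn2a and Cdkn2b, neighbours on chromosome 4, were at or near 0 in every library and did not enter the test. Cdkn2a encodes both p16INK4A and p19ARF from overlapping reading frames, and Cdkn2b encodes p15, an inhibitor known to answer to TGF-beta. Cdkn2a had 0 reads in the 5 Osmr-/- libraries and 1 read in the 6 WT libraries, in number 3. Cdkn2b had 0 reads in Osmr-/- and 3 in WT, of which 2 were in number 1 and 1 was in number 6. A count of 0 allows up to 3 reads, between 2.93 and 3.87 normalised counts in an Osmr-/- library, so both genotypes were at the floor and no fold is given. Exact two-sided permutation tests gave a p of 1 for Cdkn2a and 0.545 for Cdkn2b.

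The pocket proteins showed the opposite direction. Rbl1, which encodes p107, a partner of repressive E2F factors that is itself made mostly in cycling cells, lies on chromosome 2 from 157145893 to 157204534. It had 1417, 1110.3, 1485, 1002 and 1002 normalised counts in Osmr-/- numbers 1, 2, 3, 5 and 6, against 622 to 845 with a median of 745 in WT. All 5 Osmr-/- libraries lay above all 6 WT libraries, and numbers 1 to 3 were the highest. The means were 1203 ± 232 in Osmr-/- (SD, n = 5) and 734 ± 78.8 in WT (SD, n = 6), the smallest spread relative to its mean of any of the 10 genes in WT. Rbl1 was thus 0.70 higher on the log2 scale, or 1.62-fold (standard error 0.20, adjusted p 0.127). Libraries numbered 1 to 3 gave 0.86 and those numbered 4 to 6 gave 0.46. The authors' deposited table, with its sign turned, gave 0.69 at an adjusted p of 0.00528.

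Rb1, which encodes the retinoblastoma protein and had the highest mean level per exon length of the pocket proteins, lies on chromosome 14 from 73183673 to 73325822. It had 2005, 1446, 1618, 1294 and 1038 normalised counts in Osmr-/- numbers 1, 2, 3, 5 and 6, against 199 to 1694 with a median of 916 in WT. WT number 1, the deepest library, stood lowest at 199, WT numbers 2 and 3 lay among the Osmr-/- libraries at 1694 and 1549, and numbers 4 to 6 were at 792, 807 and 1025. Rb1 had a log2 difference of 0.79 (standard error 0.44, adjusted p 0.361), which was 0.37 without WT number 1 (adjusted p 0.542). Libraries numbered 1 to 3 gave 1.05 and those numbered 4 to 6 gave 0.42. Exons of Rb1 share 488 bases with Rcbtb2 and 408 bases with Lpar6 on the opposite strand, and the strand setting of the counting is not given, so a part of its reads is uncertain.

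Rbl2, which encodes p130, the pocket protein of resting cells and of the DREAM repressor complex, lies on chromosome 8 from 91070057 to 91123844. It had 656, 756, 635, 879 and 836 normalised counts in Osmr-/- numbers 1, 2, 3, 5 and 6, against 461 to 903 with a median of 633 in WT. The groups overlapped over most of their range. Its log2 difference was 0.27 (standard error 0.23, adjusted p 0.554), with 0.34 among libraries 1 to 3 and 0.27 among libraries 4 to 6. Its exons share 693 bases with Aktip and 892 bases with Gm45464 on the opposite strand, so a part of its reads is uncertain too.

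Per exon length the pocket proteins had the same order of means in both genotypes. Rb1 averaged 246 ± 60.2 in Osmr-/- and 168 ± 91.2 in WT, Rbl1 201 ± 38.7 and 122 ± 13.1, and Rbl2 99.6 ± 14.2 and 83.8 ± 20.4. In both genotypes the Rbl1 mean lay within the SD of Rb1, while the Rb1 mean lay outside the SD of Rbl1. Their shares of the pocket sum were 44.5% ± 4.50, 36.6% ± 2.89 and 18.8% ± 5.20 in Osmr-/- and 41.7% ± 15.5, 34.7% ± 9.56 and 23.6% ± 6.82 in WT. The sum itself was 546 ± 82.2 normalised counts per kilobase in Osmr-/- (SD, n = 5) and 374 ± 102 in WT (SD, n = 6).

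**Figure D3:**
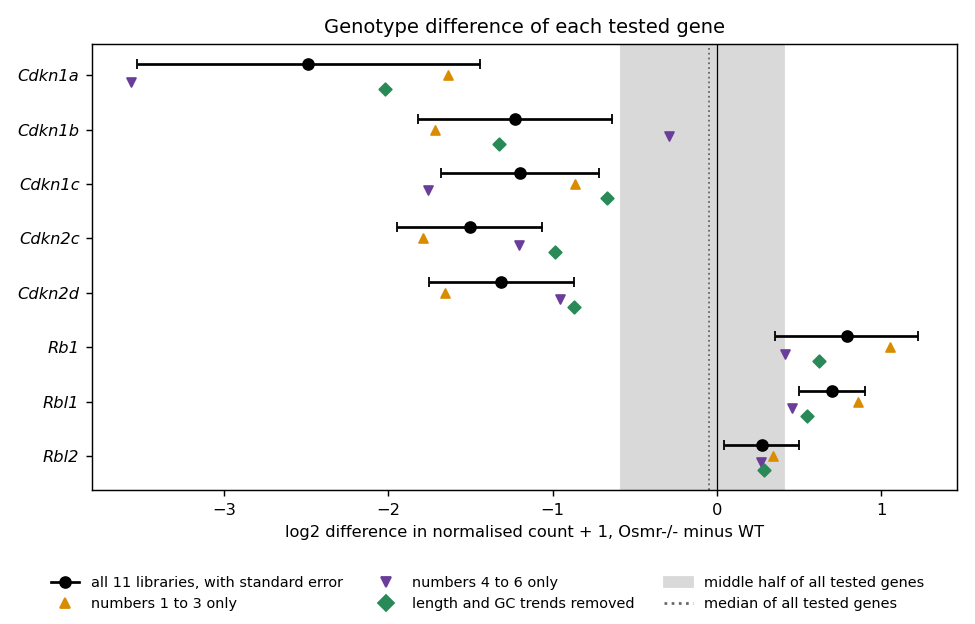
Log2 difference in normalised count + 1, Osmr-/- minus WT (horizontal axis), of the 8 tested genes. Black points with standard errors use all 11 libraries, triangles use 1 set of library numbers, diamonds have length and GC trends removed, and the grey band holds the middle 50% of all tested genes, from -0.58 to 0.41. The 5 inhibitors lie left of 0 and the 3 pocket proteins right of 0 under each of these 4 settings.

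Inhibitors and pocket proteins differ in base composition and length as well as in role. The longest annotated transcripts of Rb1, Rbl1 and Rbl2 have 4656, 4862 and 4925 bases and a GC content of 41.2%, 42.1% and 47.0%. Those of Cdkn1a, Cdkn1c, Cdkn2c and Cdkn2d have 1423 to 2471 bases and 54.4% to 59.4% GC, and the median tested gene has 3097 bases and 49.1%. With trends in length and GC removed from each library, every member kept its direction. The log2 difference of Cdkn2c was then -0.98 (adjusted p 0.309), that of Cdkn2d -0.87 (adjusted p 0.265) and that of Cdkn1c -0.67 (adjusted p 0.474). Rbl1 was then at 0.54 (adjusted p 0.184) and Rb1 at 0.62 (adjusted p 0.487). Cdkn1b, whose transcript has 4552 bases and 43.1% GC, was then at -1.32 (adjusted p 0.251). Whether length or GC has a part in the differences of the members was not tested.

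The partners of these proteins were read from lists. Of 10 cyclin and CDK genes, 7 were negative and 3 positive (median log2 difference -0.32); limma called 0, while 2 had an unadjusted p under 0.05, both lower. The authors' deposited table called 1, Ccnd2, lower. The 2 genes under an unadjusted p of 0.05 were Ccnd2 and Cdk4, the INK4 target kinase. Ccnd2 had the highest normalised counts of the D-type cyclin genes, without correction for length. It was at 1765 ± 151 in Osmr-/- (SD, n = 5) and 2928 ± 678 in WT (SD, n = 6), and Cdk4 at 4157 ± 721 and 6941 ± 2152. Both had a log2 difference of -0.70, with adjusted p of 0.121 and 0.152. For Ccnd2 every Osmr-/- library, at 1624 to 1992, lay below every WT library, at 2146 to 4030. Transcripts of the other INK4 target kinase differed less, and those of Cdk6 averaged 658 ± 165 in Osmr-/- and 589 ± 251 in WT.

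Of 10 E2F and DP genes, 5 were positive and 5 negative (median 0.06), with 0 called in limma and 2 on each side under an unadjusted p of 0.05. E2f5 was called higher in the authors' deposited table and in limma with the number set as a covariate. E2f5, a repressive E2F that binds p130 and p107, averaged 1758 ± 732 in Osmr-/- and 643 ± 465 in WT, with a log2 difference of 1.59 (adjusted p 0.104). E2f6, a repressor that does not bind pocket proteins, averaged 238 ± 85.2 and 466 ± 192, at -0.89 (adjusted p 0.223). Of 9 MuvB and DREAM genes, 7 were negative and 2 positive (median -0.52), and limma called 0, with 0 under an unadjusted p of 0.05. Its lowest p belonged to the DNA-binding subunit gene Lin54, at 0.70, and the histone chaperone gene Rbbp4, at -0.56. Of 11 tested corepressor genes, 6 were negative and 5 positive (median -0.05), with 0 called in limma and 2 lower genes under an unadjusted p of 0.05. The histone deacetylase gene Hdac1 was at -0.74 and the scaffold gene Sin3b at -0.95, with adjusted p of 0.200 and 0.142.

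Target genes of E2F and DREAM were read by phase. Of 32 G1/S genes, 16 were positive and 16 negative (median -0.02). Limma called 0 and 5 were under an unadjusted p of 0.05, all lower, which is 15.6% beside 10.5% over all genes. The authors' deposited table called 3 of them lower, Mcm10, Rfc2 and Tk1, and limma with the number set as a covariate called 1 lower, Pold3. The replication genes Mcm10 and Rfc2 were at -2.43 and -1.12, with adjusted p of 0.114 and 0.101. Of 30 G2/M genes, 26 were negative and 4 positive (median -0.95), and limma called 0, while 19 were under an unadjusted p of 0.05, all lower, or 63.3%. The authors' deposited table called 4 lower, Ccnb2, Cenpa, Nuf2 and Hmmr, and limma with the covariate called 3 of these, without Hmmr. Cenpa, a centromere histone gene, averaged 639 ± 231 in Osmr-/- and 1691 ± 743 in WT, and Ccnb2, a mitotic cyclin gene, 461.8 ± 305 and 1840.2 ± 1177.

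**Figure D4:**
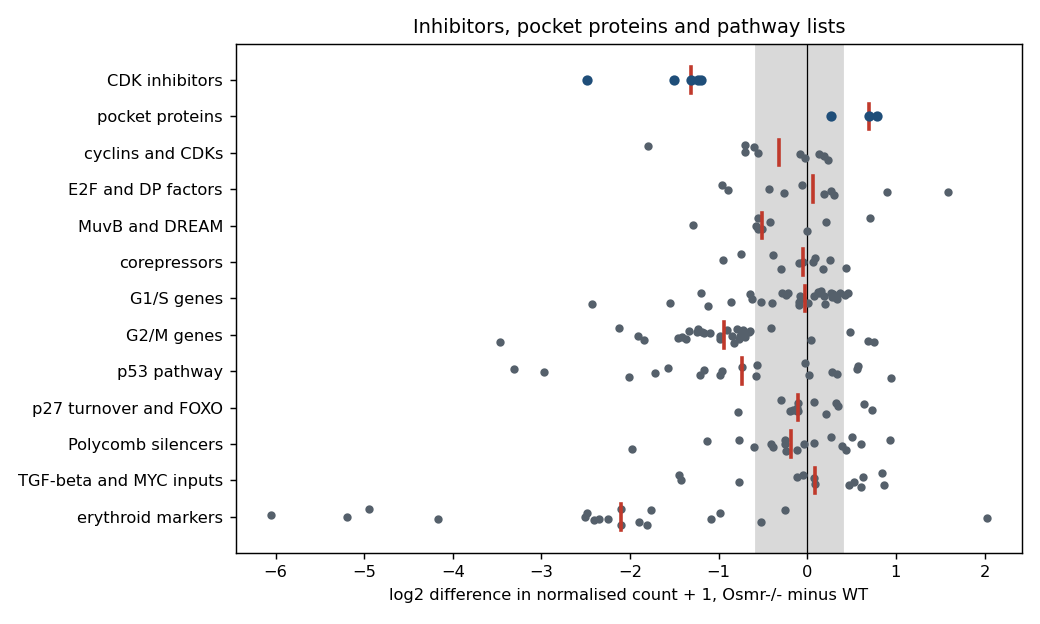
Log2 difference, Osmr-/- minus WT (horizontal axis), of each tested gene of the inhibitors, the pocket proteins and 11 lists, with 1 point per gene and a red bar at the median. The grey band holds the middle 50% of all tested genes. The inhibitors (median -1.31), the G2/M genes (-0.95) and the erythroid markers (-2.11) lie to the left, and the pocket proteins (0.70) to the right.

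Upstream regulators of the inhibitors gave 0 called genes in limma, while limma with the number set as a covariate called 3 higher, Rbx1, Bmi1 and Smad4. The authors' deposited table called Bmi1 and Smad4 higher and Cbx8 lower. The p53 list, which bears on Cdkn1a, had 13 negative and 6 positive genes among 19 tested (median -0.73), and 3 lay under an unadjusted p of 0.05, all lower. Its genes of lowest p were Bax, a pro-apoptotic BCL2 family gene, at -0.97 (adjusted p 0.179), and Perp, a membrane protein gene, at -3.31 (adjusted p 0.181). Perp was near the floor, with 20 reads in Osmr-/-. Its normalised counts were 0, 0, 0, 0 and 19.5 in Osmr-/- and 1.01 to 104 in WT, so its log2 difference depends on the pseudocount. The authors' deposited table, with its sign turned, gave -0.78. The list of Cdkn1b turnover and FOXO genes had 8 negative and 6 positive genes among 14 (median -0.10), with 2 higher and 1 lower under an unadjusted p of 0.05. Skp2, which encodes the ubiquitin ligase subunit that recognises p27, averaged 299 ± 75.3 in Osmr-/- and 189 ± 32.6 in WT, at 0.64 (adjusted p 0.259), and the ligase subunit gene Rbx1 was at 0.73 (adjusted p 0.177).

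Of 18 Polycomb and histone demethylase genes that regulate the Cdkn2a and Cdkn2b locus, not all of them silencers, 11 were negative and 7 positive (median -0.18), with 1 on each side under an unadjusted p of 0.05. Bmi1, the Polycomb gene known in mice to hold Cdkn2a off in stem cells, averaged 1618 ± 454 in Osmr-/- (SD, n = 5) and 819 ± 139.5 in WT (SD, n = 6), at 0.94 on the log2 scale (adjusted p 0.104). Osmr-/- number 5, at 866, was the library that lay within the WT range of 685 to 997. Cbx8, another Polycomb gene, averaged 28.7 ± 14.7 and 111 ± 40.2, at -1.98 (adjusted p 0.105). Cdkn2a was at the floor in both genotypes beside these levels.

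The list of TGF-beta and MYC inputs had 8 positive and 5 negative genes among 13 (median 0.09), with 3 on each side under an unadjusted p of 0.05. Smad4, the shared mediator of TGF-beta and BMP signals, averaged 1025 ± 75.8 in Osmr-/- and 578 ± 145 in WT, and every Osmr-/- library, at 958 to 1125, lay above every WT library, at 412 to 747. Its log2 difference was 0.86 with an adjusted p of 0.105. Mycn, a MYC family gene, averaged 1343 ± 694 and 698 ± 139, at 0.84 (adjusted p 0.156).

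Among the lists of cell type markers, the erythroid one had the lowest median. Of 19 erythroid markers tested, 18 were negative and 1 positive (median -2.11), and limma called 1, the blood group gene Rhd, which fell (adjusted p 0.0454). With the number set as a covariate limma called 10 lower and 1 higher, and the authors' deposited table called 9 lower and 1 higher. The higher gene in both was the beta-globin gene Hbb-bt, at 707 to 1567 in Osmr-/- and 149.8 to 697 in WT, a log2 difference of 2.02 (adjusted p 0.0640 in limma without the covariate). The erythroid marker of highest normalised count, the carbonic anhydrase gene Car2, averaged 11416 ± 2174 in Osmr-/- and 26493 ± 12704 in WT (adjusted p 0.129). It was the largest part of the summed markers and its groups overlapped, at 8959 to 14923 in Osmr-/- and 14585 to 41773 in WT. The summed erythroid markers were 13560.0 to 20557 normalised counts in Osmr-/- and 21763 to 65349 in WT, so the groups did not overlap, and in WT numbers 1 to 3 exceeded numbers 4 to 6. Cdkn2c followed the same order of groups, with 29.5 to 194 in Osmr-/-, 199.8 to 247 in WT numbers 4 to 6 and 276 to 413 in WT numbers 1 to 3. Cdkn2d did not, since WT number 3 combined the highest erythroid sum with 487 counts of Cdkn2d. The summed G2/M genes were 10052 to 21648 in Osmr-/- and 17723 to 25494 in WT, and Osmr-/- number 5 was the highest of its group for G2/M genes, for Cdkn2d and for Cdkn1b. Whether erythroid or dividing cells have a part in the differences of the inhibitors was not tested, and in these bulk samples fewer cells of a type and less RNA per cell cannot be told apart.

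**Figure D5:**
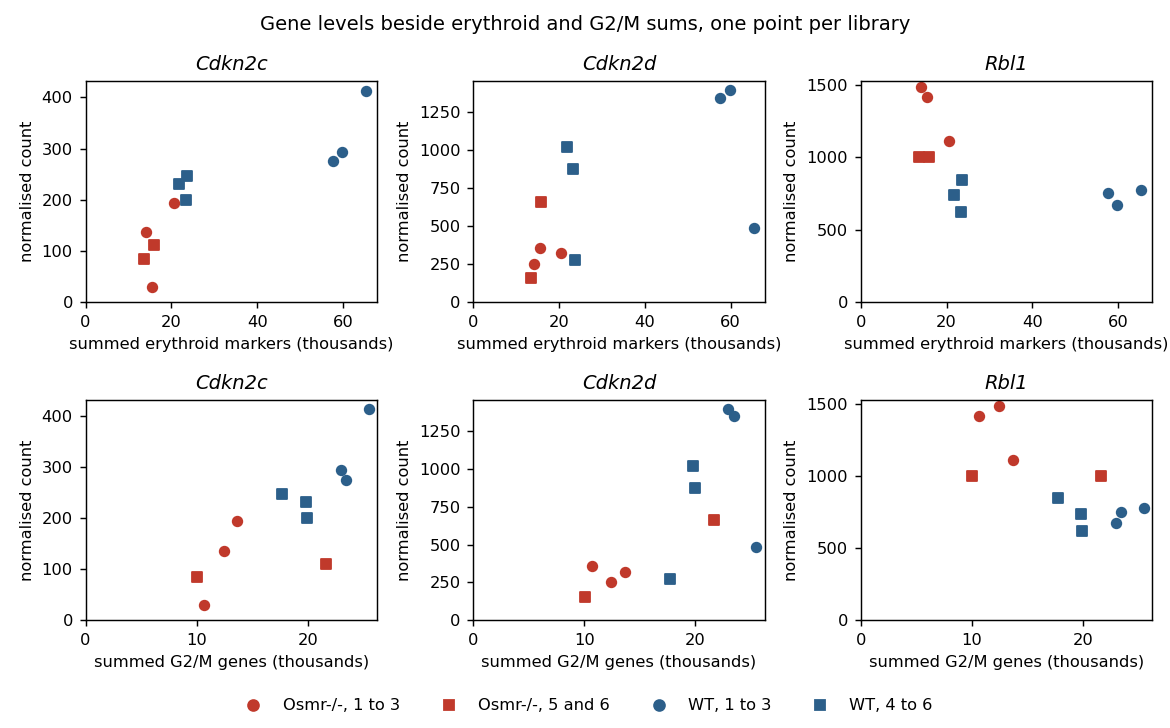
Normalised count of Cdkn2c, Cdkn2d and Rbl1 (vertical axes) against the summed normalised count (axis divided by 1000) of erythroid markers (upper row) and of G2/M genes (lower row), with 1 point per library. Osmr-/- libraries (red) have erythroid sums of 13560.0 to 20557 beside WT sums (blue) of 21763 to 65349, and their Rbl1 counts are 1002 to 1485, above the WT counts of 622 to 845.

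The sums of the granulocyte, lymphoid and megakaryocyte markers overlapped between genotypes. Summed granulocyte and monocyte markers were 10890.2 to 33198 in Osmr-/- and 9072 to 17399 in WT, with Ctsg at 0 in all libraries and Lyz2 the highest gene. Summed lymphoid markers were 5186 to 7220 and 4453 to 8495, with Cd3g, Il7r and Klrd1 at 0 and Nkg7 the highest gene, followed in WT by Cd79b, which averaged 453 in Osmr-/- and 950.4 in WT. Summed megakaryocyte markers were 3925 to 7941 and 3029 to 10056, with Pf4 the highest gene. Of 12 stem cell genes, 7 were positive and 5 negative (median 0.15), with 0 called in limma. One lower gene, Procr, was under an unadjusted p of 0.05, with a log2 difference of -0.79 (adjusted p 0.182). Of 5 tested genes of the gate's excluded proteins, 3 were positive and 2 negative (median 0.55); the highest, Ptprc, encodes CD45 in all blood cells, of which B220 is an isoform, and its groups did not overlap, at 4093 to 5657 in Osmr-/- and 2043 to 3877 in WT (adjusted p 0.129 in limma).

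As a description of pattern, the genes most like each of 7 members over the 11 libraries were named by Spearman's rho among 9066 genes. Cdkn1a, Cdkn2a and Cdkn2b, with means under 100, were left out. Those nearest to Rbl1 were Gm15658 (rho 0.98) and Bora, a mitotic kinase activator gene (0.96). Those nearest to Cdkn2d were the heme synthesis gene Urod (0.99) and the actin regulator gene Arpc1b (0.98), and those nearest to Cdkn2c were the G-protein regulator gene Rgs10 and Mzt2 (both 0.94). Cdkn1c was most like Gltscr2 (0.98) and the ribosomal protein gene Rps3 (0.95), Cdkn1b most like Ppme1 (0.97) and Ift22 (0.95), Rb1 most like Rnf146 (0.93) and Zfp26 (0.91), and Rbl2 most like Rspry1 (0.96) and Kpna4 (0.94). Between members, rho of Rbl1 was -0.81 with Cdkn1c, -0.78 with Cdkn2d, -0.71 with Cdkn1b and -0.67 with Cdkn2c. These values hold the genotype difference and the differences between the number sets within them.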

How the data were processed

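Polyadenylated RNA of 1000 sorted cells per mouse was amplified with 13 to 18 cycles of PCR, per the labels' protocols, so reads are not independent molecules and floors cover counting error only. Trimmomatic 0.36.6, FastQC 0.72, HISAT2 2.1.0, HTSeq 0.9.1, a DESeq2 wrapper (2.11.40.6) and mm10 are named in the submitters' processing notes; neither the annotation nor the strand setting is given in the sources used here. The main values, used as signal, are gene counts that the authors divided by a DESeq2 size factor per library. The authors also deposited regularised and variance-stabilised values on a log2 scale. Their deposited comparison table holds log2 fold changes, a Wald score, p-values and adjusted p-values, and runs WT over Osmr-/-, so its sign was turned.

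In R 4.3.3, limma 3.58.1 (trended variance, genotype alone) was fitted to log2(normalised count + 1) for genes at 10 or more in at least 5 libraries, with Benjamini-Hochberg adjustment over all genes and a threshold of 0.05. Log2 differences on this scale depend on the pseudocount for low genes and weigh libraries near 0 more than a ratio of means does. Library steps gave back whole reads, within 1.4e-09 of a whole number, for DESeq2 1.42.0 and edgeR 4.0.16 as alternatives. Scripts were tested on simulated data.

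The 10 members and 16 gene lists (246 of 248 genes in the table) were chosen with earlier results of these data known. The genes named are the members, the 2 of lowest p in each pathway list, the 2 most like each member with a mean of 100 or more, and Osmr. From each cell type list the gene of highest mean normalised count, without correction for length, is named. Some others (Cdk6, Kit, Flt3, Cd3e, Ly6g, Rhd, Hbb-bt, Cd79b, Tk1, Pold3, Nuf2, Hmmr and markers at 0) were added after their values were seen. Exon lengths, positions and GC come from GENCODE M21 on GRCm38. Replicates are separate mice. Alternatives covered pseudocount, filter, scaling, tool, covariates, number sets and each library left out, and removal of length and GC trends was added after the data were seen.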

Additional observations from a re-analysis of the deposited data

Results flagged for a closer look

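Of 32 groups of libraries checked for a single library far from the rest, 4 were marked, where chance marks about 1 group in 20. Cdkn1c had 96.2 normalised counts in WT number 6, far below the other 5 WT libraries. Rb1 had 199 in WT number 1, far below the other 5 WT libraries, and its log2 difference was 0.37 without that library. Cdkn2a had 1.01, a single read, in WT number 3 and 0 in the other WT libraries. A single read beside zeros is always marked by this rule, so the rate of 1 in 20 does not apply to it. The summed granulocyte and monocyte markers were 33198 in Osmr-/- number 3, far above the other 4 Osmr-/- libraries, and the same library held the highest Cdkn1a count of its group.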

How the results depend on the processing

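Over 215 alternative values of the 8 tested members, 0 reversed direction and 3 came under the threshold, all with DESeq2 on the recovered reads, which called 3 members: Cdkn2c at -1.31, Cdkn2d at -1.36 and Rbl1 at 0.72. Under every other setting run, 0 members were called. With a replicate block, pairing Osmr-/- and WT libraries by number, Cdkn2c was at -1.55 and Rbl1 at 0.70 and 0 members and 0 genes were called; correlations of same-numbered libraries were 0.0203 to 0.0986, and 1 of 5 Osmr-/- libraries correlated best with its own number. Limma called 3 of all genes tested. That count was 55 with a pseudocount of 10, 56 with quantile scaling, 69 with the authors' regularised log values, 66 with their variance-stabilised values, 453 with DESeq2, 337 with the number set as a covariate and 23 with length and GC trends removed. It was 2 with a pseudocount of 0.5 and with edgeR, and 0 without a filter, with a filter at 50, and in each set of library numbers alone, 1 to 3 or 4 to 6, with fewer libraries. It ran from 0 to 122 as each library was left out, the highest without WT number 6 and 0 without Osmr-/- number 2 or without WT number 2, 3, 4 or 5. The causes of these changes were not tested. Few reads limit what can be said of Cdkn2a and Cdkn2b, with 0 reads in Osmr-/-. The same holds for Cdkn1a, which had 10 reads or fewer in 4 Osmr-/- libraries and 83 in number 3.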
